A study of Mus musculus with 60 samples.

Results

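The comparison described here spans the whole sampled life of the microglia in a mouse time course, from embryonic day 18 (E18) to postnatal day 60 (P60). Its members were chosen by sample title, as the 12 libraries titled F_P60_Sal (7) or M_P60_Sal (5) against the 7 titled F_E18 (3) or M_E18 (4), which makes 19 of the 60 libraries of the study. The study followed microglia of both sexes through development and also tested an immune stimulus in adults, which is not described here. Intermediate libraries at P4 (8) and P14 (20) were used to ask which genes left the range set by the end stages on the way, so that 47 libraries entered the fit. All of these mice were C57BL/6N with no named mutation. The E18 animals were untreated and the P60 animals had received saline, so age, the saline treatment and the date written in the sample description cannot be told apart, since the 4 dates of the E18 libraries and the 3 dates of the P60 saline libraries had 0 in common. The labels name the tissue only as microglia and do not say how the cells were purified, nor whether the libraries came from separate mice, so the p-values below measure the spread between these libraries.

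Microglia are the resident macrophages of the brain. They arise from yolk sac progenitors, enter the brain in the embryo, divide and clear debris there during late gestation and early postnatal life, and later become ramified, long-lived cells. Their adult state is held by signals such as TGF-beta, CSF1 and IL-34 and by transcription factors that include Sall1, Irf8 and Mef2 proteins, and it is recognised by surface proteins such as P2ry12 and Tmem119 that other macrophages carry little of.

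Total counts ran from 1369084 to 2758823 per library at E18 and from 802016 to 3228801 at P60. The defining genes of microglia, P2ry12, Tmem119, Cx3cr1, Csf1r, Siglech, Fcrls and Sall1, were detected in every library of both ages. Every library also carried RNA of other brain cells. Transcripts of Ttr, the transport protein made by the choroid plexus, took 0.653% to 24.8% of the counts at E18 and 0.0162% to 11.99% at P60. The library titled M_E18 4 stood apart, with the 24.8% of Ttr, a choroid plexus marker sum of 341503 CPM (counts per 1000000 of the TMM-scaled library size), 0 counts of Y-linked genes and 176 CPM of Xist against its title. The title and the sex entered in the labels disagree for 5 of the 19 libraries. In 4 of these, M_E18 1, M_P60_Sal 5, F_E18 2 and F_P60_Sal 6, Y-linked counts (440, 889, 1 and 0) and Xist (10.5, 15.1, 791 and 1264 CPM) went with the title. Results are therefore given with and without M_E18 4, and "F" and "M" stand for titles. In bulk RNA such as this, fewer cells of a type and less RNA per cell cannot be told apart.

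Most measured genes differed between the end stages. Of 13853 genes tested, 4354 (31.4%) were higher at P60 and 4827 (34.8%) were lower, which makes 9181 (66.3%) in either direction (edgeR's quasi-likelihood test, adjusted p below 0.05). Changes of at least 2-fold were made by 2452 genes upward (17.7%) and 3235 downward (23.4%). In 1272 genes (9.18%) every P60 library lay above every E18 library, and in 1399 (10.1%) every P60 library lay below. The net change is given throughout as log2 of P60 saline over E18, averaged over the F and M libraries, ± its standard error, and its median over all genes was −0.08. Without M_E18 4 the calls were 4207 rises and 4907 falls, of which 3972 and 4519 were among the calls above. The split between rises and falls depended on how libraries were scaled, with 3650 rises and 5700 falls under RLE scaling, 3757 and 5774 with DESeq2, 3724 and 5618 under upper quartile scaling, and 2797 and 6649 with library size alone, which moved the median of all genes to −0.44.

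Genes of the homeostatic adult microglia rose almost without exception. Of 34 listed genes tested, 33 rose and 0 fell, against 31.4% and 34.8% of all genes, and in 30 of them every P60 library exceeded every E18 library (9.18% of all genes). Their median net change was 3.54, and the same 33 and 0 calls and a median of 3.54 were found without M_E18 4. The member that missed the threshold was Fscn1, with a difference of 0.58 ± 0.27 (adjusted p = 0.0528). Taken by interval, the list's median difference was 1.40 from E18 to P4, 1.44 from P4 to P14 and 0.35 from P14 to P60, where neighbouring intervals share the libraries of the stage between them. This list and those below were chosen with earlier results of these data known, so their shares are descriptions and not tests. Upk1b, Mlph, Csmd3, Selplg and Tmem119 of this list are among the 12 largest net rises of genes that reached 10 CPM. Rises and falls in the lists below are to be read against the same 31.4% and 34.8% of all genes.

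Tmem119, a membrane protein used to tell microglia from other macrophages, was at 18.3 to 56.1 CPM (median 24.7) in the 7 E18 libraries and at 939.6 to 2870.3 CPM (median 1397) in the 12 P60 libraries. It rose by 5.54 ± 0.37 (adjusted p = 2.06e-17), by 5.54 without M_E18 4, and the ranges did not overlap. The purine receptor P2ry12, which steers microglial processes toward sites of injury, was at 92.4 to 309 CPM (median 176) at E18 and 3201 to 8327 CPM (median 5774) at P60, a rise of 4.83 ± 0.26 (adjusted p = 2.29e-20). Most of that rise lay before P14, when the level was already 2341 to 6043 CPM (median 4015). Csmd3, a large protein with complement-like domains, followed a later course. It was at 0.972 to 4.57 CPM (median 2.19) at E18, 11.96 to 51.9 CPM (median 23.2) at P14 and 117 to 324 CPM (median 225) at P60, so that 3.02 ± 0.17 of its net 6.21 ± 0.33 came after P14 (adjusted p = 3.33e-18).

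Upk1b, a tetraspanin-like uroplakin, was at 0 in 5 of the 7 E18 libraries, with a highest value of 0.914 CPM, and was at 54.5 to 145 CPM (median 93.0) at P60. Its fitted rise was 8.87 ± 0.41 (adjusted p = 4.6e-22), and 5.10 ± 0.31 of it lay between P4 and P14 (adjusted p = 8.94e-17). The plot of 8 such genes by library shows the distance between the end stages against the spread inside each.

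**Figure D1:**
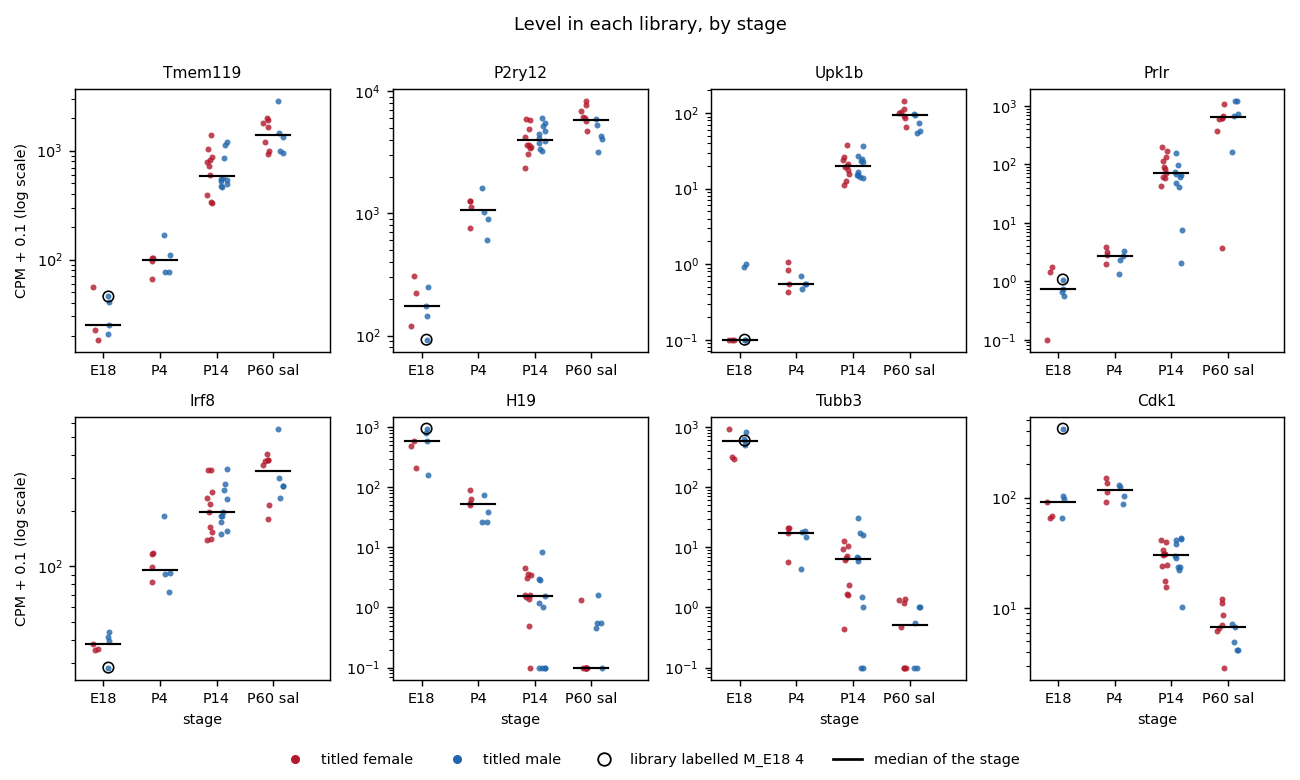
Levels of 8 genes in each of the 47 libraries at E18, P4, P14 and P60 saline, in CPM on a log axis after adding 0.1, with 1 point per library coloured by title, the median of each stage as a bar, and M_E18 4 circled. Tmem119, P2ry12, Upk1b, Prlr and Irf8 were higher in every P60 library than in any E18 library, and H19, Tubb3 and Cdk1 were lower in every P60 library.

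Transcription factors of the myeloid lineage rose with them. Of 29 tested, 25 rose and 3 fell, with a median of 1.68 (25, 3 and 1.54 without M_E18 4). Irf8, an interferon regulatory factor needed for microglial development, was at 28.2 to 43.9 CPM (median 38.1) at E18 and 181 to 557 CPM (median 328) at P60, and rose by 3.12 ± 0.24 (adjusted p = 1.07e-15). Mef2a and Bhlhe41 differed by −0.08 ± 0.17 (adjusted p = 0.742) and −0.08 ± 0.20 (adjusted p = 0.756) from P14 to P60. Mef2a was at 249.7 to 602 CPM (median 489.9) at P14 and 266 to 622 CPM (median 459) at P60, with a net rise of 2.75 ± 0.25 (adjusted p = 4.83e-13). Against the list, Tfec, a factor of the Mitf family, fell by 2.36 ± 0.35 (adjusted p = 7.19e-08) and Tcf4, an E protein also made by neurons and endothelial cells, fell by 1.09 ± 0.20 (adjusted p = 6.11e-06). Marker sums of those cells are given below, and their part in the fall of Tcf4 was not tested.

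Most listed genes of the TGF-beta pathway rose. Of 20 listed genes, 13 rose and 3 fell, with a median of 1.268 (13, 4 and 1.16 without M_E18 4). Tgfbr1, the type I receptor, was at 76.8 to 287 CPM (median 196) at E18 and 1459.7 to 4190.4 CPM (median 2639) at P60, a rise of 3.71 ± 0.24 (adjusted p = 1.21e-17). The type II receptor Tgfbr2 rose by 2.45 ± 0.22 and Itgav, an integrin subunit that helps to release the latent ligand, by 1.69 ± 0.17. Of the 3 ligands, Tgfb1 and Tgfb2 rose by 1.67 ± 0.28 (adjusted p = 9.46e-07) and 1.49 ± 0.38 (adjusted p = 0.000743), both named after their values were seen, and Tgfb3 fell by 1.97 ± 0.33 (adjusted p = 1.1e-06). Bambi, a pseudoreceptor that dampens the signal, fell by 1.26 ± 0.27 (adjusted p = 6.88e-05), and by 0.86 without M_E18 4.

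Genes for sensing microbes and for signalling to other cells rose over the same span. Among receptors and signal carriers of the Toll-like receptor (TLR) and NF-kB pathways, 20 of 26 rose and 0 fell (median 1.38). Tlr3, a sensor of double-stranded RNA, was at 0.972 to 16.8 CPM (median 8.85) at E18 and 112 to 212 CPM (median 176) at P60, and rose by 4.18 ± 0.24 (adjusted p = 3.99e-19). Tlr7, Tlr4 and Tlr6 rose by 3.76 ± 0.26, 2.91 ± 0.20 and 2.98 ± 0.27, and no P60 library of these 3 genes overlapped the E18 range. Of 21 cytokines and chemokines, 16 rose and 2 fell (median 1.92). The inflammatory cytokine Il1a was at 82.7 to 125 CPM (median 97.2) at E18 and 476 to 2207 CPM (median 1103) at P60, a rise of 3.46 ± 0.30 (adjusted p = 8.94e-14). Osm, a cytokine of the IL-6 family, rose by 3.63 ± 0.31, and the chemokines Ccl3 and Ccl4 rose by 2.78 ± 0.25 and 2.94 ± 0.27. The neutrophil attractants Cxcl1 and Cxcl2 went the other way, falling by 1.21 ± 0.35 (adjusted p = 0.00239) and 0.86 ± 0.27 (adjusted p = 0.00486), with E18 and P60 libraries that overlapped. With the description date as a random block (limma-voom) Cxcl2 was no longer called and 1 listed gene fell. Without M_E18 4 the rises and falls were 19 and 0 in the first list and 17 and 2 in the second, with medians of 1.35 and 1.92.

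More complement genes rose than fell. Of 18 tested, 12 rose and 5 fell, against 31.4% and 34.8% of all genes, with a median of 1.68. C1qa, a chain of the recognition molecule that tags synapses and debris, was at 258 to 915 CPM (median 393) at E18 and 1047 to 3544 CPM (median 1740.4) at P60, and rose by 2.04 ± 0.26 (adjusted p = 2.9e-09). Itgam and Itgb2, the subunits of complement receptor 3, rose by 3.46 ± 0.27 and 2.63 ± 0.22. C2 and Cfp, which form or stabilise the C3 convertases, fell by 2.13 ± 0.28 (adjusted p = 4.53e-09) and 1.76 ± 0.29 (adjusted p = 6.72e-07), and C3 itself fell by 1.67 ± 0.39 (adjusted p = 0.000269). Without M_E18 4 there were 12 rises and 5 falls, with a median of 1.71.

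Receptors for uptake showed a smaller common rise, in 14 of 21 genes with 4 falls and a median of 1.05. The bridging protein Pros1, a ligand of the phagocytic receptor Mertk, rose by 2.61 ± 0.16 (adjusted p = 4.22e-18), with 38.9 to 82.1 CPM (median 56.2) at E18 and 209 to 503 CPM (median 374) at P60. The Fc receptors Fcgr2b and Fcgr1 rose by 2.92 ± 0.20 and 3.148 ± 0.22. Mfge8, a bridging protein for apoptotic cells, fell by 1.58 ± 0.25 (adjusted p = 3.88e-07), and the scavenger receptor Scarb1 by 1.17 ± 0.13 (adjusted p = 1.36e-10). Lysosomal genes had 22 rises and 2 falls among 30 (median 0.80), among them a rise of 3.01 ± 0.22 in the protease Ctss. Without M_E18 4 the uptake list gave 14 rises and 4 falls (median 1.05) and the lysosomal list 23 and 2 (median 0.87).

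Antigen presentation rose without exception among the genes tested. All 20 MHC class I genes and all 9 class II genes rose, with medians of 1.58 and 3.23. The invariant chain Cd74 was at 30.3 to 53.1 CPM (median 38.0) at E18 and 138 to 551 CPM (median 345) at P60, a rise of 2.96 ± 0.24 (adjusted p = 5.19e-15), and H2-Eb1 rose by 3.77 ± 0.34 (adjusted p = 1.65e-13), with 5.81 to 23.3 CPM (median 6.88) at E18 and 44.1 to 381 CPM (median 109) at P60. The light chain of class I, B2m, rose by 1.82 ± 0.19. MHC class II genes are also made by border macrophages, of whose markers 1 rose and 6 fell among 11. Lymphocyte marker sums ran from 8.30 to 29.2 CPM at E18 and from 14.5 to 96.6 CPM at P60. Cd3e was at 0 in all 7 E18 libraries and in 9 of the 12 P60 libraries, and Cd79b was detected in every library of both ages. The part of these cells in the rise was not tested. Interferon-responsive genes rose in 17 of 34 cases with 0 falls (median 0.80). The GTPase genes Tgtp1 and Tgtp2 rose by 6.14 ± 0.64 and 6.15 ± 0.63 from an E18 range of 0 to 0.337 CPM for each, but these near-identical copies cannot be counted apart with certainty. Without M_E18 4 all 20 class I and all 10 class II genes tested rose, as did 17 of 34 interferon-responsive genes, with medians of 1.62, 3.34 and 0.81.

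Genes that respond to stimulation and stress were also higher in adult libraries. Among immediate early genes 19 rose and 3 fell of 24 (median 1.87), among heat shock genes 13 rose and 0 fell of 14 (median 1.34), and among genes induced by glucocorticoids 9 rose and 1 fell of 15 (median 1.39). Zfp36, which destabilises cytokine messages, was at 148 to 264 CPM (median 165) at E18 and 963 to 3810.1 CPM (median 2146) at P60, a rise of 3.53 ± 0.25 (adjusted p = 9.29e-17). The kinase Sgk1, a target of the glucocorticoid receptor, rose by 3.25 ± 0.24 (adjusted p = 4.14e-16), with 112 to 384 CPM (median 208) at E18 and 1294 to 2987 CPM (median 2190.4) at P60. Without M_E18 4 the medians of the 3 lists were 1.69, 1.31 and 1.26, with 19, 12 and 9 rises. Falls among the glucocorticoid-induced genes numbered 3 with DESeq2, RLE or upper quartile scaling and 4 with library size alone. Immediate early and heat shock genes are known to be induced by the handling of tissue and cells as well, and the labels give no account of the handling of these libraries.

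Against these rises, genes of the immature state fell more often than they rose. Of 29 genes linked to fetal, amoeboid or proliferative-region microglia, 14 fell and 5 rose, against 34.8% and 31.4% of all genes. The median was −0.48, and without M_E18 4 there were 13 falls, 6 rises and a median of −0.22. The rises numbered 3 with DESeq2, RLE or upper quartile scaling and 2 with library size alone. Spp1, the secreted phosphoprotein osteopontin, was at 213 to 1295 CPM (median 588) at E18, 298 to 1757 CPM (median 514) at P4 and 7.99 to 27.5 CPM (median 15.6) at P60, and fell by 5.34 ± 0.30 (adjusted p = 2.22e-19). The fatty acid carrier Fabp5 fell by 5.70 ± 0.33 (adjusted p = 4.15e-19), with 58.6 to 219 CPM (median 91.6) at E18 and 0 to 5.60 CPM (median 1.23) at P60, with no overlap. Igf1, a growth factor made by early postnatal microglia, fell by 2.41 ± 0.20 (adjusted p = 1.84e-14). The tetraspanin Cd9, by contrast, rose by 1.23 ± 0.18 (adjusted p = 4.84e-08). The scavenger receptor Marco had 0 counts in all 12 P60 libraries and 1.24 to 4.86 CPM (median 1.66) at E18, which made it at least 13.4-fold lower at P60 when the P60 group is set at 3 counts in all.

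Cell division was lower at P60 in every listed gene. All 30 of 30 mitotic genes fell, with a median of −3.23 (30 and −3.42 without M_E18 4), and so did 29 of 30 DNA replication genes, with a median of −1.78 (28 and −1.83 without M_E18 4). Cdk1, the kinase that drives entry into mitosis, was at 65.3 to 419 CPM (median 91.1) at E18 and 2.80 to 11.9 CPM (median 6.59) at P60, and fell by 4.12 ± 0.27 (adjusted p = 1.95e-17), or by 3.74 without M_E18 4. Uhrf1, which keeps DNA methylation through replication, fell by 4.296 ± 0.25 (adjusted p = 5.79e-19), with 30.3 to 61.3 CPM (median 40.7) at E18 and 0 to 4.01 CPM (median 2.18) at P60, and the replicative helicase subunit Mcm6 fell by 2.15 ± 0.16 (adjusted p = 1.1e-15). No P60 library of Cdk1, Uhrf1 or Mcm6 reached the E18 range.

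Because these genes moved together, the promoters of 4 that hold both motifs named below are shown. Mki67, Kif11, a spindle motor, and Top2a, a topoisomerase, stood above both end stages at P4 by 1.83, 1.21 and 1.05 before they fell, and Cdk1 did not. The 4 were chosen after their values were seen. Ccnb2, Cdc20 and Ube2c also hold both motifs in the 250 bases before the start and are not shown. At P4, Ccnb2 and Cdc20 stood 0.52 and 0.16 over the nearer end stage, and Ube2c lay between the end stages. Many mitotic genes are known to be held silent outside the cycle through the cell cycle homology region (CHR), and nearby CCAAT boxes are known to bind the activator NF-Y. The 150 bases before the annotated start are printed 5′ to 3′ on the gene's strand from the RefSeq annotation of GRCm38.p6, with each TTTGAA (the CHR core) and CCAAT, read on either strand, in capitals. On the opposite strand they read TTCAAA and ATTGG.
Mki67, chr7:135716380-135716529, minus strand: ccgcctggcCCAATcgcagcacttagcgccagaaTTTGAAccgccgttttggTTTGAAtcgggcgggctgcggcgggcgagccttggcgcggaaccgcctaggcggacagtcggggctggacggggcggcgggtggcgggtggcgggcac
Kif11, chr19:37376232-37376381, plus strand: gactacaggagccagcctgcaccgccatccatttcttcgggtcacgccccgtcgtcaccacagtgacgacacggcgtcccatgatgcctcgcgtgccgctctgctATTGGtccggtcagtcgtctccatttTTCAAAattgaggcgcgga
Top2a, chr11:99024190-99024339, minus strand: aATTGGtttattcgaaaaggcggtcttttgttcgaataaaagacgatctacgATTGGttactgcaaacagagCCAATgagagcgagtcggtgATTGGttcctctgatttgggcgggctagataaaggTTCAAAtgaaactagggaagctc
Cdk1, chr10:69352913-69353062, minus strand: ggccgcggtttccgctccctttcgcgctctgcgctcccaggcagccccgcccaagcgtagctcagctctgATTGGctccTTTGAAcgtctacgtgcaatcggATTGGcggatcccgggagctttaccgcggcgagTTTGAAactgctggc
In the 250 bases before the start, TTTGAA on either strand was found in 8 of 26 cell division promoters (30.8%), 2 of 23 DNA replication promoters (8.70%), 1 of 21 homeostatic promoters (4.76%) and 1006 of 9833 promoters of all tested genes (10.2%). CCAAT on either strand was found in 20 of 26 (76.9%), 14 of 23 (60.9%), 9 of 21 (42.9%) and 3578 of 9833 (36.4%). Both stood in 7 of 26 cell division promoters (26.9%) and in 385 of 9833 overall (3.92%). These are matches of letters in a fixed window, and the files hold no measurement of binding.

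Fetal growth genes fell as well. Of 24, 20 fell and 0 rose (median −2.65, −2.62 without M_E18 4). H19, an imprinted noncoding RNA of fetal tissue, was at 158 to 946 CPM (median 586) at E18, 26.3 to 90.6 CPM (median 52.7) at P4, 0 to 8.19 CPM (median 1.43) at P14 and 0 to 1.53 CPM at P60, with a fitted fall of 10.69 ± 0.48 (adjusted p = 2.19e-22). Mir675 lies within H19, so the 2 rows are not independent, and its count of 0 over the P60 libraries made it at least 382-fold lower. Igf2bp3, a fetal RNA-binding protein, fell by 4.43 ± 0.21 (adjusted p = 4.48e-22). From E18 to P4 it rose by 0.50 ± 0.18 (adjusted p = 0.0183), to 50.4 to 87.0 CPM (median 60.4). After P14 it fell by 3.63 ± 0.19 (adjusted p = 2.27e-19), with 12.8 to 42.5 CPM (median 24.5) at P14 and 1.02 to 4.40 CPM (median 2.01) at P60.

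Ribosomal protein, cholesterol synthesis and glycolytic genes had more falls than rises. Of 44 cytosolic ribosomal protein genes 38 fell and 1 rose (median −1.18), and without M_E18 4 the counts were 36 and 1 (median −1.01). Rplp0, a stalk protein of the large subunit, was at 246 to 1273 CPM (median 449) at E18 and 50.4 to 333 CPM (median 108) at P60, a fall of 1.92 ± 0.24 (adjusted p = 1.25e-09) with overlapping libraries. Pseudogene copies make single ribosomal genes uncertain. Cholesterol synthesis fell in 19 of 22 genes with 1 rise (median −1.60). Without M_E18 4, 21 fell (median −1.71). Of 19 glycolytic genes 12 fell and 5 rose (median −0.79), or 10 and 6 without M_E18 4 (median −0.60). Lactate dehydrogenase Ldha fell by 2.01 ± 0.21 (adjusted p = 1.93e-11), or 1.62 without M_E18 4, whereas the hexokinase Hk2 rose by 3.59 ± 0.34 (adjusted p = 7.54e-13), with 9.72 to 25.7 CPM (median 17.5) at E18 and 106 to 357 CPM (median 264) at P60. Oxidative phosphorylation gave 16 falls and 3 rises among 41 genes (median −0.52), and without M_E18 4 it gave 11 and 3 (median −0.21). Its share of falls lay near the 34.8% of all genes, while its 3 rises of 41 were a smaller share than the 31.4% of all genes. With library size alone it gave 29 falls and 0 rises.

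**Figure D2:**
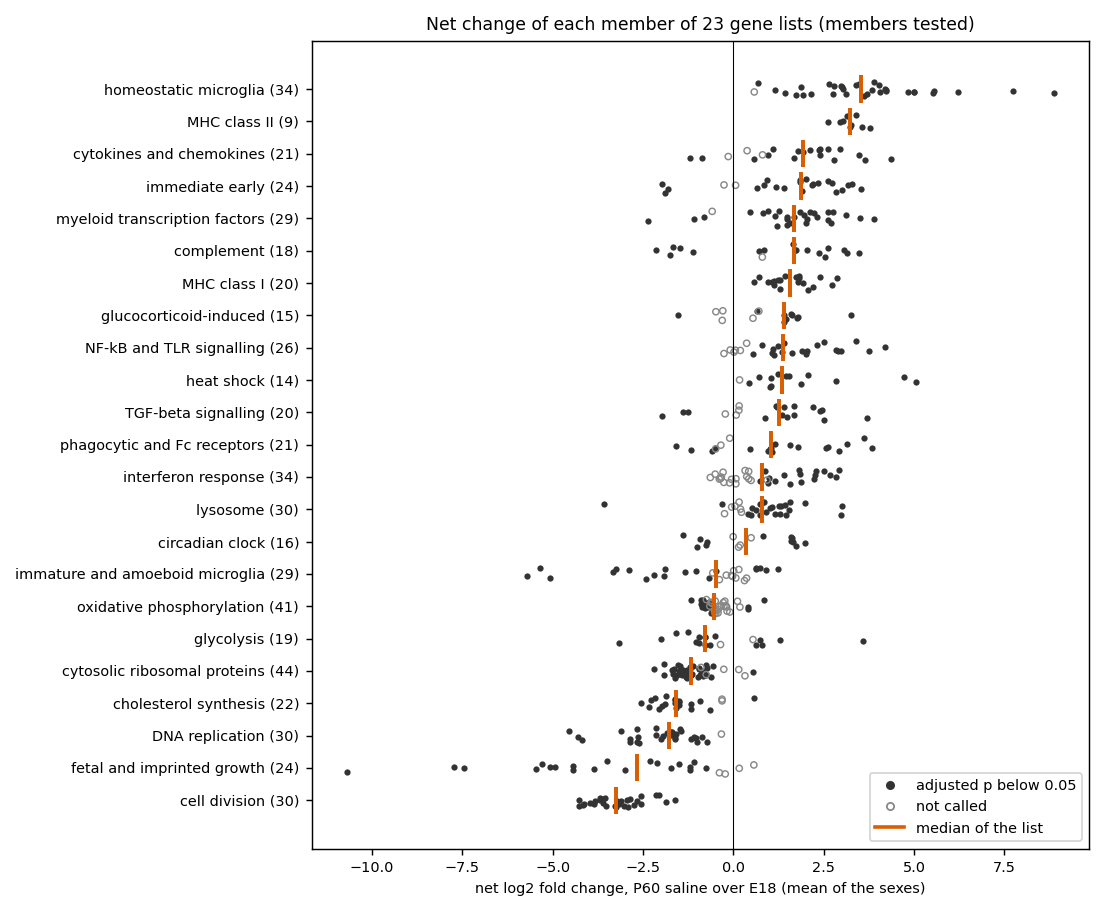
Net log2 change from E18 to P60 saline for every tested member of the 23 gene lists, 1 point per gene, filled where the adjusted p was below 0.05 and open otherwise, with the list median as a bar and a line at 0. The homeostatic and MHC class II members lie wholly to the right and the cell division members wholly to the left, as do most fetal members. Clock members straddle the line, and oxidative phosphorylation members lie mostly to the left of it with some to the right.

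Among genes that reached 10 CPM, the largest fitted rise was that of Prlr, the prolactin receptor, which the choroid plexus makes in quantity. It was at 0 to 1.66 CPM (median 0.626) at E18 and 3.57 to 1228 CPM (median 654) at P60, a fitted rise of 9.70 ± 0.86 (adjusted p = 3.03e-13), and 9.68 without M_E18 4. The lowest P60 value, 3.57 CPM, came from F_P60_Sal 5, the library with the lowest choroid plexus sum (300.1 CPM against a P60 median of 53519) and the lowest Kl (8.34 CPM), Enpp2 and Ttr. At E18 the choroid plexus sum reached 341503 CPM in M_E18 4 and 95727 CPM in M_E18 3, with no Prlr value above 1.66 CPM. The part of the choroid plexus in the rise of Prlr was not tested. Kl and Enpp2, choroid plexus products, themselves rose by 5.08 ± 0.67 and 4.93 ± 0.73, while Aqp1 and the ciliary factor Foxj1 fell by 2.55 ± 0.51 and 1.78 ± 0.36. Upk1b had its highest value, 145 CPM, in F_P60_Sal 5. Other large rises outside the lists were those of Slco4a1, an organic anion transporter (5.59 ± 0.47), Pln, a regulator of the calcium pump (5.50 ± 0.60), Cmya5 (5.29 ± 0.38) and 5031414D18Rik (5.14 ± 0.29).

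Neuronal transcripts were among the genes that fell most. All 17 of 17 neuronal markers fell, with a median of −6.15, and their summed level dropped from a range of 953 to 2887 CPM at E18 to 14.3 to 67.7 CPM at P60. Tubb3, a neuronal tubulin, was at 297 to 938 CPM (median 595) at E18 and 0 to 1.30 CPM (median 0.404) at P60, with 0 counts in 5 of the 12 P60 libraries, and fell by 9.93 ± 0.60 (adjusted p = 5.06e-18). Snap25 was at 0 in 9 of the 12. Mpped1, Neurod2, Ube2ql1 and Epha5, genes of developing neurons, had 0 counts over all P60 libraries and were at least 899-fold, 325-fold, 277-fold and 257-fold lower. Stmn1 and Tuba1a, counted above as fetal growth genes, are also abundant in young neurons, and they fell by 4.93 ± 0.27 and 3.50 ± 0.17. Whether neuronal RNA set those falls was not tested.

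Other cell types moved less uniformly, to be read against the 31.4% of all genes that rose and the 34.8% that fell. Red blood cell markers fell in 6 of 6 genes, with sums of 279 to 2376 CPM at E18 and 0 to 881 CPM at P60, which overlapped. Hbb-b1 and Hbb-b2 had the same counts, 4073 over E18 and 225 over P60. Hba-a1 and Hba-a2 had the same highest counts, 1717 at E18 and 160 at P60. The 6 genes are therefore not independent, and the sums may count the same reads more than once. Astrocyte and radial glia markers gave 10 falls and 2 rises of 14. The radial glial carrier Fabp7 fell by 8.63 ± 0.58 (adjusted p = 9.5e-17), while Glul, glutamine synthetase, rose by 2.40 ± 0.19 (adjusted p = 2.32e-15). The summed level was 1685 to 2733 CPM at E18 against 2903 to 4115 CPM at P60. Glul alone had 8525 counts over the E18 libraries and 52567 over the P60 libraries, so the higher sum does not mean that most of these markers rose. Oligodendrocyte markers rose in 6 and fell in 4 of 14, not far from those shares. The myelin gene Mag rose by 3.46 ± 0.36, whereas Olig1 and Pdgfra, genes of the progenitors, fell by 3.26 ± 0.62 and 2.12 ± 0.41. Border macrophage genes fell in 6 of 11, including Lyve1 (−3.23 ± 0.41) and Pf4 (−2.88 ± 0.39), and neutrophil genes in 6 of 12, or 3 without M_E18 4. Endothelial and mural markers gave 5 rises and 6 falls of 16, and monocyte markers 4 and 5 of 12, near the shares of all genes.

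**Figure D3:**
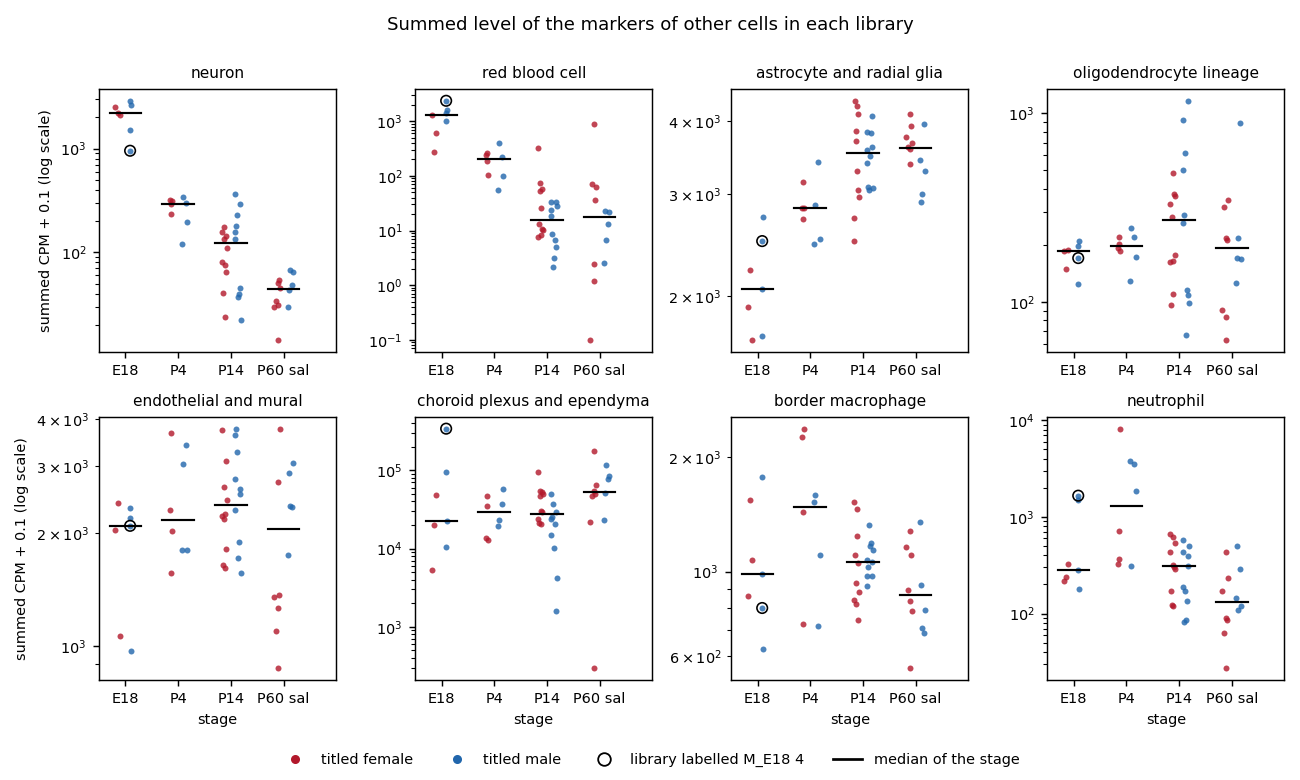
Summed CPM of the markers of 8 other cell types in each library at the 4 stages, on a log axis, 1 point per library with the stage median as a bar and M_E18 4 circled. The median neuronal sum falls at each stage from E18 to P60, choroid plexus sums spread widely within each stage, and the median neutrophil sum is highest at P4.

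The net change was not shown to differ between F and M libraries. In the test of the difference itself, 0 genes passed at an adjusted p below 0.05 (0.0%), while 1957 (14.1%) had an unadjusted p below 0.05. Without M_E18 4 the numbers were 0 and 544. With every library kept, other fits called 175 genes (DESeq2) and 410 (limma-voom with sample weights). Leaving out M_E18 1 or M_E18 2 gave 174 and 1074. The count therefore differed with the method and with single E18 libraries.

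The course between the end stages was not always a passage from one level to the other. The P4 and P14 libraries shared no description date with each other or with the end stages. Stage and date therefore cannot be told apart here either. At P4, 685 genes (4.94%) stood above both E18 and P60, and 295 (2.13%) stood below both. At P14 the numbers were 1396 above (10.1%) and 769 below (5.55%). Both differences had to pass an adjusted p below 0.05 with the same sign. In all, 2768 genes (20.0%) left the range of the end stages at P4 or P14, of which 224 were above at both stages and 144 below at both. By at least 2-fold against each end, the counts were 281 (2.03%) and 50 (0.361%) at P4, and 242 (1.75%) and 164 (1.18%) at P14. Without M_E18 4 the counts were 580, 360, 1225 and 1098, of which 541, 246, 1178 and 717 were shared with those above. The balance at P14 depended on the scaling, since library size alone gave 903 above and 1190 below, RLE scaling 1045 and 1180, upper quartile scaling 986 and 1298, and DESeq2 1127 and 1264. With the description date as a random block (limma-voom) the counts were 760 above and 141 below at P14, and 544 and 118 at P4. Leaving out F_P60_Sal 5 raised the number below at P14 to 1221, the top of 692 to 1221 over 27 such fits. It was 1117 without F_P60_Sal 4 and 1096 without M_P4 1, a library of neither P14 nor an end stage. With every library kept and F_P14 7 as the TMM reference, chosen after seeing the data, it was 1110. A shift of the size seen without M_E18 4 was therefore not particular to that library.

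Many of these genes had no net change by the test. Of the 4672 genes whose net change was not called, 1601 lay outside the end stages at P4 or P14. Among the genes above both ends at P14, 617 also rose from E18 to P60, 70 fell and 709 had no net call. Among the genes above both ends at P4 the balance was different, with 67 rises, 232 falls and 386 without a call. Genes below both ends at P14 were mainly without a call (570), beside 186 falls and 13 rises.

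**Figure D4:**
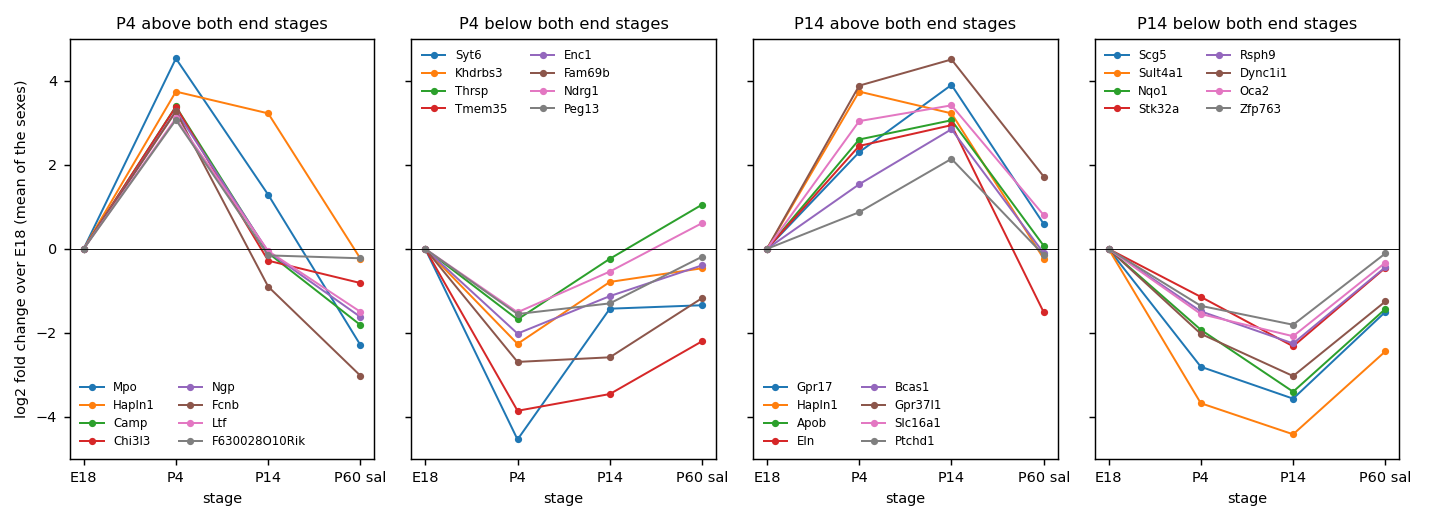
Fitted log2 differences from E18, averaged over F and M, for the 8 named genes of each pattern at E18, P4, P14 and P60 saline, in 4 panels for genes above or below both end stages at P4 or P14. Lines in the panels for genes above are higher at the stage named than at E18 and P60, and lines in the panels for genes below are lower than at both. Thrsp, below both ends at P4, finishes above its E18 level.

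At P4 the excess covered dividing cells, immature phagocytes and granulocyte genes. Of the cell division genes that all fell by P60, 19 of 30 were first above the E18 level (4.94% of all genes), or 14 without M_E18 4. Mki67, the proliferation antigen whose promoter is printed above, was at 20.4 to 313 CPM (median 190.1) at E18, 369.6 to 735 CPM (median 560.1) at P4, 87.2 to 240.2 CPM (median 139) at P14 and 4.201 to 44.0 CPM (median 25.6) at P60. It was 1.83 ± 0.33 above E18 (adjusted p = 1.16e-05) and 4.51 ± 0.31 above P60 (adjusted p = 1.58e-16). The lowest E18 value of Mki67 belonged to M_E18 4. The cytokinesis gene Anln and the kinetochore motor Cenpe lay in the same pattern, by 1.57 and 1.40 over the nearer end stage, whereas Cdk1 differed by only 0.05 ± 0.25 from E18 to P4 (adjusted p = 0.887). The median neutrophil marker sum was also highest at P4 (ranges below), and its part in this excess was not tested.

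Of the immature microglial genes, 11 of 29 stood above both ends at P4 (4.94% of all genes), and 11 did without M_E18 4. Lpl, a lipase of lipid-handling microglia, was at 43.7 to 291 CPM (median 174) at E18, 259 to 810.2 CPM (median 515) at P4 and 19.6 to 75.4 CPM (median 44.1) at P60, 1.60 above the nearer end (larger adjusted p = 3.82e-06). Itgax, the integrin CD11c that marks a growth-supporting early postnatal population, was at 9.13 to 25.1 CPM (median 20.9) at E18, 29.8 to 129 CPM (median 55.3) at P4, 3.71 to 23.1 CPM (median 9.89) at P14 and 12.6 to 52.4 CPM (median 24.5) at P60. It was 1.74 ± 0.28 above E18 at P4 (adjusted p = 2.07e-06) and −0.86 ± 0.24 relative to E18 at P14 (adjusted p = 0.00175), so it passed above and then below the end stages, and its net difference was 0.37 ± 0.26 (adjusted p = 0.218). The Src-family kinase Fgr was at 2.49 to 9.72 CPM (median 6.09) at E18, 18.4 to 55.0 CPM (median 22.4) at P4 and 2.27 to 10.7 CPM (median 6.35) at P60, and no P4 library overlapped either end. The integrin Itga4 behaved alike, at 1.99 above the nearer end.

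The largest excess at P4 was in genes of neutrophils and their precursors, 9 of 12 of which stood above both ends (4.94% of all genes). Mpo, the myeloperoxidase of granulocyte precursors, was at 0 to 17.5 CPM (median 0.415) at E18, 0 to 106 CPM (median 31.7) at P4 and 0 to 0.933 CPM (median 0) at P60, 4.54 over the nearer end (larger adjusted p = 0.00027). Camp, Ngp and Ltf, granule proteins, were 3.39, 3.29 and 3.11 over the nearer end. Neutrophil marker sums were 179 to 1661 CPM at E18, 310.4 to 8209 CPM at P4, 82.4 to 669 CPM at P14 and 27.5 to 501 CPM at P60. The highest P4 sum belonged to F_P4 4, and without it the excess was 4.35 for Mpo, 1.797 for Camp, 1.75 for Ngp and 1.72 for Ltf, while the calls of Chi3l3 (1.56) and S100a9 (0.84) were lost. Whether neutrophils or microglia made this RNA was not tested.

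The dips at P4 were fewer. Khdrbs3, an RNA-binding protein, was at 48.6 to 86.7 CPM (median 69.8) at E18, 13 to 18.7 CPM (median 13.9) at P4, 29.3 to 60.1 CPM (median 37.9) at P14 and 25.2 to 62.2 CPM (median 53.8) at P60, −1.801 relative to the nearer end (larger adjusted p = 3.69e-13), with no P4 library inside either end range. The imprinted noncoding RNA Peg13 fell by 1.55 ± 0.14 from E18 to P4 (adjusted p = 6.78e-12), remained at 30.2 to 49.7 CPM (median 40.9) at P14 and was back at 72.5 to 106 CPM (median 88.1) at P60, against 60.3 to 138 CPM (median 100.1) at E18. Thrsp, a lipogenic regulator, was at 2.26 to 4.82 CPM (median 3.07) at P4 and 12.1 to 46.2 CPM (median 23.2) at P60, and ended 1.06 ± 0.27 above E18 (adjusted p = 0.00065). Syt6, which is also neuronal, had the largest dip, at −3.20 relative to the nearer end.

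At P14 the excess included genes of the TLR and NF-kB list, of which 11 of 26 stood above both ends (10.1% of all genes), or 10 without M_E18 4. The receptors Tlr3, Tlr7, Tlr4 and Tlr6, whose net rise is given above, were not among them. Nfkb2, the precursor of the noncanonical p52 subunit, was at 17.5 to 75.8 CPM (median 53.0) at E18, 94.9 to 156 CPM (median 108) at P4, 102 to 367 CPM (median 154) at P14 and 1.40 to 91.1 CPM (median 52.0) at P60. It was 1.90 ± 0.31 above E18 at P14 (adjusted p = 8.79e-07), fell by 1.88 ± 0.25 thereafter (adjusted p = 7.61e-08) and had a net difference of 0.02 ± 0.31 (adjusted p = 0.966). Its partner Relb was at 57.0 to 156 CPM (median 100.4) at P14 against 16.5 to 42.9 CPM (median 23.5) at E18 and 12.6 to 53.9 CPM (median 26.5) at P60, with no P14 library inside either end range, and the inhibitor Nfkbib was 1.26 over the nearer end.

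Clock genes formed another group of this shape. While 7 of 16 rose and 5 fell from E18 to P60 (median 0.34), against 31.4% and 34.8% of all genes, 8 stood above both ends at P14 (10.1% of all genes), or 7 without M_E18 4. The repressor Cry1 was at 18.7 to 32.5 CPM (median 23.5) at E18, 32.4 to 72.0 CPM (median 57.0) at P14 and 5.60 to 20.4 CPM (median 11.4) at P60. It rose by 0.99 ± 0.15 from P4 to P14 (adjusted p = 1.04e-06) and fell by 2.07 ± 0.15 to P60 (adjusted p = 7.27e-15). Its lowest P14 library (32.4 CPM) touched the highest at E18 (32.5 CPM), and all P14 libraries lay above the P60 range. Per3 and Gm129, other repressors of the clock, were 1.57 and 1.88 over the nearer end. The labels give no hour of collection, and these genes are known to cycle within the day. Among the myeloid transcription factors 10 of 29 overshot at P14 (8 without M_E18 4), including Sfpi1, which encodes PU.1 (0.84 over the nearer end), and Rel (0.88).

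Genes with the largest excess at P14 came from several functions. Apob, an apolipoprotein, was at 0 to 4.57 CPM (median 2.74) at E18, 6.14 to 22.6 CPM (median 16.1) at P4, 10.5 to 29.9 CPM (median 21.2) at P14 and 0 to 4.76 CPM (median 2.27) at P60. It was 3.06 ± 0.32 above E18 at P14 (adjusted p = 1.18e-11), fell by 2.99 ± 0.27 to P60 (adjusted p = 2.41e-12), and its net difference was 0.07 ± 0.36 (adjusted p = 0.87). No library of either middle stage overlapped the end stages. Slc16a1, a carrier of lactate and ketone bodies, was at 31.5 to 100.1 CPM (median 39.0) at E18, 265 to 669.6 CPM (median 344) at P4, 287 to 789 CPM (median 514) at P14 and 38.2 to 130.2 CPM (median 91.9) at P60, and both middle stages lay wholly above both ends. Icos, a costimulatory receptor better known from T cells, was at 10.96 to 25.5 CPM (median 22.1) at P4 and 13.8 to 30.8 CPM (median 17.6) at P14 against 0.972 to 7.07 CPM (median 3.66) at E18 and 1.36 to 17.9 CPM (median 3.91) at P60. The matrix protein Eln was 2.95 over the nearer end, at 755 to 5171 CPM (median 1341) at P14.

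Some of the same pattern belonged to genes of other cells. Gpr17 and Bcas1, genes of maturing oligodendrocyte precursors, were 3.32 and 2.85 over the nearer end, and Hapln1 and Gpr37l1, glial genes, 3.23 and 2.79. Oligodendrocyte marker sums were 125 to 212 CPM at E18, 67.2 to 1168 CPM at P14 and 63.1 to 891 CPM at P60. Their part in these differences was not tested.

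**Figure D5:**
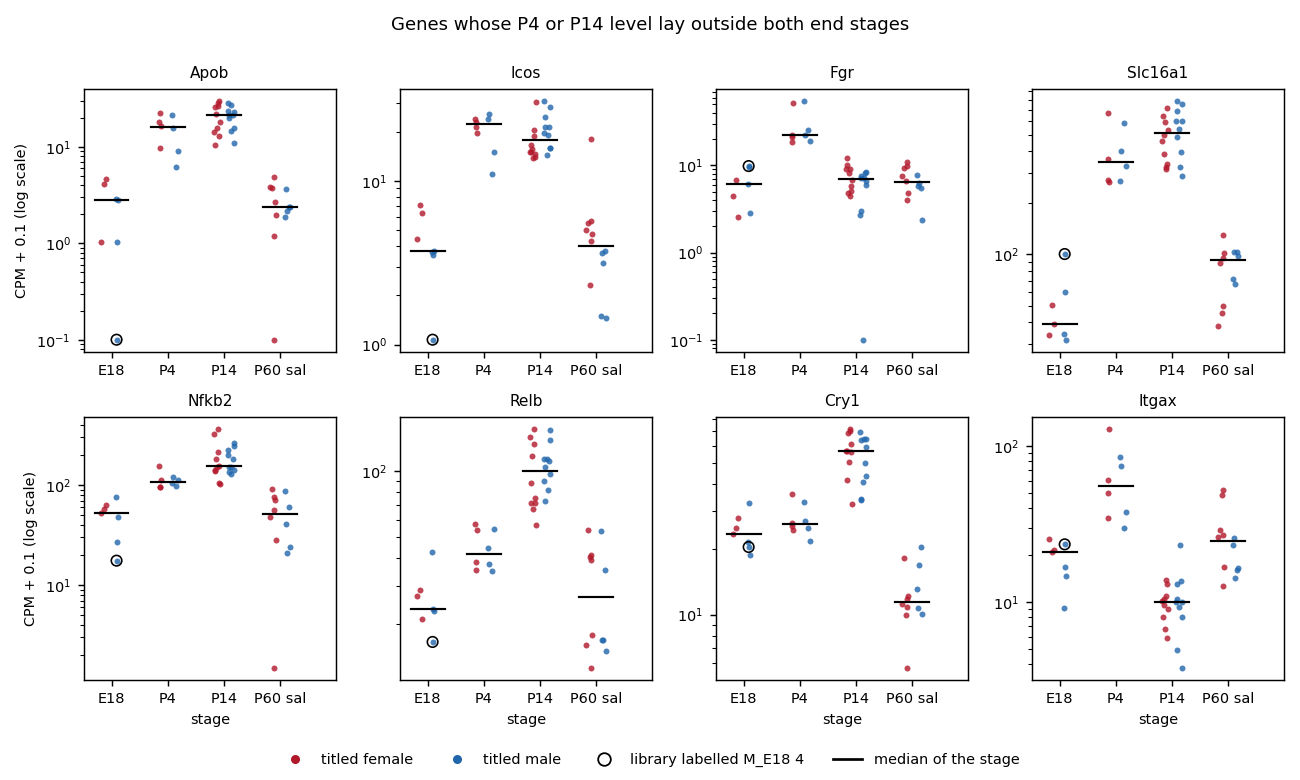
Levels of 8 genes that left the range of the end stages, in each library at E18, P4, P14 and P60 saline, in CPM on a log axis after adding 0.1, 1 point per library with the stage median as a bar and M_E18 4 circled. Apob, Icos and Slc16a1 are high at both middle stages, Fgr and Itgax at P4, and Nfkb2, Relb and Cry1 at P14.

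Other genes lay below both ends at P14. Scg5, a chaperone of neuroendocrine secretion, was at 32.3 to 74.0 CPM (median 47.9) at E18, 0 to 15.4 CPM (median 3.65) at P14 and 1.19 to 36.4 CPM (median 16.4) at P60, −2.07 relative to the nearer end (larger adjusted p = 1.11e-05). Among interferon-responsive genes 5 of 34 were below both ends at P14 (5.55% of all genes), and 6 were without M_E18 4. Rsad2, an antiviral enzyme, was at 1.94 to 19.2 CPM (median 12.8) at E18, 0.969 to 7.56 CPM (median 4.56) at P14 and 4.93 to 32.2 CPM (median 10.9) at P60, −1.29 relative to the nearer end (larger adjusted p = 2.49e-05), with a net difference of 0.07 ± 0.28. Of the oxidative phosphorylation genes 5 of 41 were below both ends, or 9 without M_E18 4. Ndufa4, a component of the respiratory chain, was at 40.8 to 275 CPM (median 98.9) at P14 against 104 to 1281 CPM (median 143) at E18, and the libraries of all stages overlapped.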

How the data were processed

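Microglial RNA had been extracted with Trizol and made into libraries with a stranded polyA kit, per the labels' protocols. The deposited values are raw counts per transcript row, and the submitters' processing notes name CASAVA 1.8.2, mm9 and edgeR. An aligner or counting tool is not given in the sources used here. For each gene the row that the authors marked as best was used (21988 genes), and otherwise the row of highest total (881 genes), from 28644 rows. Strand use in counting is not stated, so overlapping genes cannot be told apart.

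From these counts, 47 libraries in 8 groups of title sex and stage were fitted with edgeR 4.0.16 in R 4.3.3, after filterByExpr (13853 genes) and TMM scaling, with the robust quasi-likelihood test and Benjamini-Hochberg adjustment at 0.05. CPM are counts per 1000000 of the scaled library size. F and M differences were averaged. Levels are given as lowest, highest and median, and no interval is given for the single values, whose precision is set by totals of 802016 to 3228801 counts. DESeq2 1.42.0 and limma 3.58.1 served as alternatives.

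The members and the 33 gene lists (23 of genes, 10 of cell markers) were chosen with earlier results of these data known. Genes named are the 12 largest net rises and falls and the 8 largest of each pattern outside the end stages or transient, among those with a mean of at least 10 CPM, and in each list up to 4 of smallest p with its median, 2 against it and 3 outside the end stages. List symbols not matched numbered 3. Some genes that this rule names are not reported here. The 40 pairs of libraries within groups checked for copies all differed beyond sampling noise (chi-square per gene 2.63 to 101). Replicate numbers were not shown to pair E18 with P60 libraries.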

Additional observations from a re-analysis of the deposited data

Results flagged for a closer look

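Within groups of 4 to 7 libraries, 100 groups of values were examined for a library far from the others and 16 were flagged. Chance alone flags about 1 in 20 where values are normally distributed. That rate does not hold for levels near 0, where a single library with reads among libraries at 0 is always flagged. The 16 flags therefore cannot be set against it. F_P60_Sal 6 stood apart in 4 measures, with 11.99% of its counts from Ttr, a red blood cell sum of 881 CPM, a choroid plexus sum of 179048 CPM and a lymphocyte sum of 96.6 CPM. M_P60_Sal 1 had an oligodendrocyte sum of 891 CPM and 1.81 CPM of the neuronal gene Sez6. F_P60_Sal 3 had 106 counts of Y-linked genes against its title, beside 1908 CPM of Xist, which went with its title. The M_P60_Sal libraries had 658 to 1325 counts of Y-linked genes. F_P60_Sal 3 also had 0.432 CPM of Neurod6, and M_E18 4 had 176 CPM of Xist. M_P60_Sal 2 had the highest Selplg (3772 CPM) and Tmem119 (2870.3 CPM) of its group. M_E18 3 was the library of its group with counts of Tgtp1 and Tgtp2 (0.313 CPM each), F_P60_Sal 4 had 1.23 CPM of H19, and F_P60_Sal 1 had 0.364 CPM of Dlx1as and 0.729 CPM of St8sia2. At these low levels the gene flags rest on a few reads.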

How the results depend on the processing

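Net rises and falls kept counts within 1.5 times the main 4354 and 4827 under every alternative but library size alone, which gave 2797 rises. Genes above both ends at P4 (685) numbered 1035 with sample weights. Genes below at P4 (295) numbered 464 with sample weights, 118 with the date block and 156 with library size alone. Genes above at P14 (1396) numbered 903 with library size alone and 760 with the date block. Genes below at P14 (769) numbered 1264 with DESeq2, 1180 with RLE, 1298 with upper quartile scaling, 1190 with library size alone and 141 with the date block. The cause was not tested. Leaving out 1 library at a time at E18, P4 or P60 (27 fits) gave 3864 to 4391 net rises, 4726 to 5334 falls, 506 to 741 above and 237 to 419 below at P4, 977 to 1503 above and 692 to 1221 below at P14 (1221 without F_P60_Sal 5), and 0 to 1074 genes differing by sex. The sex difference also gave 175 with DESeq2 and 410 with sample weights. With the replicate number as a block, which is not a pairing the labels state, the counts were 4440, 4795, 676, 270, 1359 and 549, and correlations of same-numbered E18 and P60 libraries were 0.0329 to 0.298. The clock list's median was −0.036 with library size alone, against 0.34. Grouped by the sex entered in the labels in place of the title, the sex difference in net change turned sign for Rps25 (0.88), 0610007C21Rik (1.37), Ssr2 (1.29), Tmbim4 (1.274), Thoc7 (0.22), Calm2 (0.73) and Rpl21 (0.46). With F_P14 7 as the TMM reference, chosen after seeing the data, the counts were 4099, 5140, 589, 393, 1099 and 1110. With totals of 802016 to 3228801 counts, genes under about 1 CPM rest on few reads.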
